A study of Mus musculus with 16 samples.

Results

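A set of 10 genes that mark fat cells was followed across mouse ear skin in a model of psoriasis-like inflammation. They are the adipokine genes Adipoq, Lep and Cfd, the lipid droplet genes Plin1, Plin4 and Cidec, the lipase gene Lipe, the fatty acid handling genes Fabp4 and Lpl, and the transcription factor gene Pparg. They were taken by symbol from the annotation sheet of the array and number 10 of the 30943 genes measured. Each symbol had a single transcript cluster, the unit in which this array reports a gene, so no choice between clusters was needed. The 16 arrays formed 4 groups of 4. Imiquimod (IMQ) was given to miR-146a knockout mice (labelled B6/Mir-146a-/-, a deletion for which the labels name no cell type) and to wild-type mice, both on the C57BL/6J background and 8 to 11 weeks old. Knockout and wild-type ears treated with a vehicle control were the other 2 groups. The cream, Aldara with 5% IMQ, was put on the right ear at 31.25 mg a day for 3 days, and ear flaps were collected on day 4. What the vehicle contained is not given in the sources used here. Nor do the labels say whether each array of a group is another mouse, so the errors and p-values here cover the spread between arrays, which may be technical.

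White adipocytes store triglyceride in a single large lipid droplet. Lipoprotein lipase (Lpl) releases fatty acids from circulating lipoproteins, the carrier protein encoded by Fabp4 binds them inside the cell, Cidec and the perilipins coat and enlarge the droplet, and hormone-sensitive lipase (Lipe) breaks the stored fat down again. Pparg drives adipocyte differentiation, and mature adipocytes secrete adiponectin (Adipoq), leptin (Lep) and adipsin (Cfd), a protease of the alternative complement pathway. In skin these cells lie in the dermal and subcutaneous fat, which in the mouse ear is thin. Not all of these genes are restricted to adipocytes: Fabp4 is also made by capillary endothelium and macrophages, Lpl by muscle and macrophages, Plin4 by muscle, and Pparg by sebocytes and macrophages.

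All values are the log2 expression values deposited by the authors, and a difference of 1 is a doubling. The array medians lay between 3.21 and 3.28, and the members' group means lay above them in every group. Only Lep had values below this background, on 2 of 4 wild-type vehicle arrays. Its mean there lay at the 52.9th percentile of all genes, against the 97.7th percentile for Fabp4. Adipoq was also low in that group, with a mean of 3.89 at the 62.6th percentile and a lowest array of 3.52. Within a group each array correlated with the others at a mean r of 0.960 to 0.975 over transcript clusters, lowest for knockout vehicle array 3. The 15 markers of stressed epidermis averaged 7.53 on that array and 5.34 on knockout vehicle array 4, against 6.35 and 6.73 on the other two of that group, so calls that ended without these arrays together, and counts that moved, are given beside the results. Ear tissue was present in every group by its cartilage markers (11 genes, array means 4.17 to 5.21) and muscle markers (24 genes, array means 6.57 to 8.72). The samples are bulk tissue, in which fewer adipocytes and less of an RNA per adipocyte cannot be told apart.

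The microRNA missing from the knockout is shown because it defines the genotype, with its seed, bases 2 to 8, in capitals (RefSeq, GRCm38.p6, chr11:43374435-43374456, minus strand):
miR-146a-5p: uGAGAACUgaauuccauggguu
Promoters are shown for the members whose sequence before the start holds the letters TTGCNNAA, a core recognised by C/EBP factors, which act beside Pparg in adipocyte differentiation. Of the 10 members 8 had start sites in the RefSeq promoter table (GRCm38.p6), with 12 windows of 250 bases, searched on both strands. TTGCNNAA stood in 4 of these 12 windows, belonging to 4 members, and in 9.56% of the 32851 windows of all genes. The nuclear receptor half-site AGGTCA stood in 2 windows, both of Pparg (14% of all windows), TATAAA in 1, of Pparg (12.4% of all windows), and the spaced direct repeat of that half-site, which Pparg binds with its partner, in 0 of the 12 (0.0335% of all windows). The 4 windows with TTGCNNAA follow, with the matches in capitals. They cover chr6:29059971-29060220 (plus strand) for Lep, chr7:79732777-79733026 (minus strand) for Plin1, chr6:113434765-113435014 (minus strand) for the second of 2 Cidec start sites and chr6:115421816-115422065 (plus strand) for the third of 3 Pparg start sites.
Lep: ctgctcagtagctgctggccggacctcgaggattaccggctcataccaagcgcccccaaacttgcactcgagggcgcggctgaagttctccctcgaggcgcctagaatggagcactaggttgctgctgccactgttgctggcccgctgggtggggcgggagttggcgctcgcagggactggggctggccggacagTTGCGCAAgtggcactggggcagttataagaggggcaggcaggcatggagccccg
Plin1: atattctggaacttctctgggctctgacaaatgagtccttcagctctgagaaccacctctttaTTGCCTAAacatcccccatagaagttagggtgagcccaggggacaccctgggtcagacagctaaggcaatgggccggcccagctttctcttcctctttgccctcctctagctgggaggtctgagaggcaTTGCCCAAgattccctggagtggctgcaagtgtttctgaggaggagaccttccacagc
Cidec: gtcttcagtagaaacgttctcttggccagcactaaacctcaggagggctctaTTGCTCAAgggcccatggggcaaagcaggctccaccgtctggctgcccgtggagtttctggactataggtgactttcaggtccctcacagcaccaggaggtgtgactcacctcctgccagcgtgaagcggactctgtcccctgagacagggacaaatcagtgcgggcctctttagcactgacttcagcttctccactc
Pparg: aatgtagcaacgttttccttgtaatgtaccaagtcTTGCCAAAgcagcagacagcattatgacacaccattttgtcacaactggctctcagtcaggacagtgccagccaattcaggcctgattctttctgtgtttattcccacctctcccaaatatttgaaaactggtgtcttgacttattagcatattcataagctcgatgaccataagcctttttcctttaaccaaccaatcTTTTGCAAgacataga
These matches describe the letters of the windows and show no binding. The matches nearest to a start began at position -16 in Pparg, -55 in Lep, -58 in Plin1 and -198 in Cidec, counted from the start. The members that hold them include Plin1 and Pparg, lower with IMQ in knockout ears, and Cidec, higher with IMQ in wild-type ears, as given next. Lep holds a match too and was not called. Fabp4 and Lpl, also called, had no RefSeq promoter here and could not be searched.

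In knockout ears Plin1, Lpl and Pparg fell with IMQ and no member rose, while in wild-type ears Cidec and Fabp4 rose and no member fell. A call means an adjusted p under 0.05 in limma, a linear model fitted to all genes of the 16 arrays, with Benjamini-Hochberg adjustment over the 30943 genes. In knockout ears 3 of 10 members were called, where 15.0% of all genes were called, 8.07% higher and 6.91% lower. In wild-type ears 2 of 10 were called, where 3.64% of all genes were called, 1.95% higher and 1.69% lower. The median change of the 10 members was -0.33 in knockout and 0.57 in wild-type ears, and that of all genes was -0.02 in each. The knockout median was -0.20 without knockout vehicle array 2 and -0.55 without knockout vehicle arrays 3 and 4, and it turned to 0.28 with the mean of the skeletal muscle genes as a covariate, when 8 of 10 estimates were positive. The wild-type median was 0.37 without wild-type IMQ array 2 and 0.54 with the covariate. No member was called in both genotypes.

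**Figure D1:**
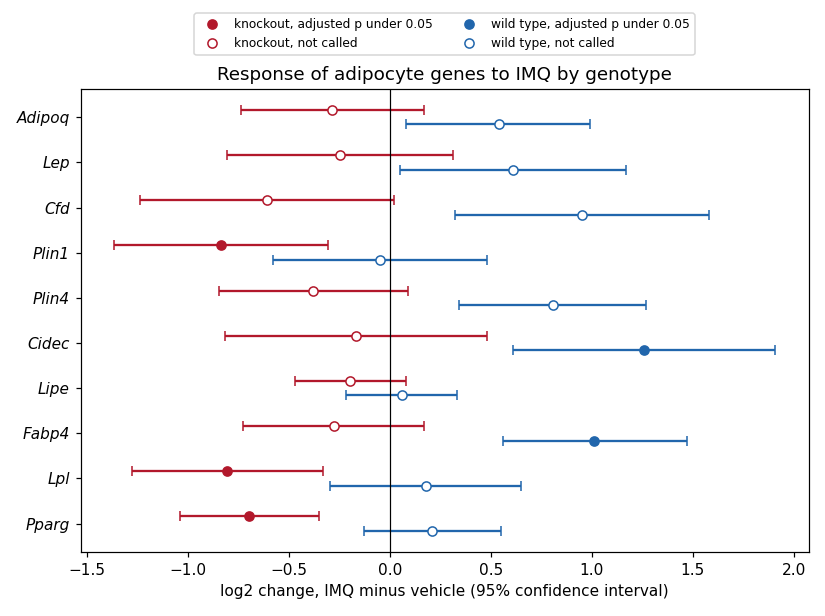
Log2 change with IMQ (IMQ minus vehicle, x axis) of each adipocyte gene (y axis) in knockout ears (red, upper of each pair) and wild-type ears (blue, lower), with 95% confidence intervals from limma (n = 4 and 4). Filled points passed an adjusted p of 0.05: Plin1, Lpl and Pparg to the left of 0 in knockout ears, Cidec and Fabp4 to the right of 0 in wild-type ears.

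Among the adipokines, Cfd had the largest estimates. Its values with IMQ in knockout ears were 5.92, 5.73, 5.50 and 5.33, against 6.37, 6.57, 5.38 and 6.59 with vehicle. In wild-type ears they were 5.78, 7.27, 6.80 and 6.37 with IMQ, against 5.20, 5.97, 5.20 and 6.04 with vehicle. The groups overlapped in both genotypes, and the changes of -0.61 ± 0.30 in knockout and 0.95 ± 0.30 in wild-type ears (SE) did not pass limma's test (adjusted p = 0.222 and 0.0990). The overlap came from knockout vehicle array 3 and wild-type IMQ array 1, each the lowest of its group. Without the first Cfd changed by -0.89 in knockout ears (adjusted p = 0.0400). In wild-type ears, whose own arrays were all kept but which share the estimate of spread, the change was then 0.95 (adjusted p = 0.0485). Without the second it was 1.21 in wild-type ears (adjusted p = 0.0311). Cfd was called under 1 of 27 alternatives in knockout ears (adjusted p up to 0.427) and 3 of 27 in wild-type ears (up to 0.285). With the skeletal muscle mean as a covariate the knockout estimate turned to 0.97 (adjusted p = 0.174). The wild-type estimate was then 0.86 (adjusted p = 0.0113).

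Adiponectin mRNA (Adipoq) was among the lower members on the array. It read 4.31, 4.21, 4.52 and 4.18 in knockout IMQ ears, against 4.42, 5.02, 4.10 and 4.82 in knockout vehicle ears. Wild-type ears gave 4.10, 5.07, 4.42 and 4.10 with IMQ and 3.79, 4.16, 3.52 and 4.07 with vehicle. Wild-type IMQ array 2 stood highest of all 16, and the groups overlapped in every comparison. The change with IMQ was -0.29 ± 0.22 in knockout and 0.54 ± 0.22 in wild-type ears (adjusted p = 0.479 and 0.231). In vehicle ears Adipoq was 0.70 ± 0.22 higher in the knockout, which did not pass limma's test (adjusted p = 0.159). Leptin mRNA (Lep) ran from 3.50 to 3.91 in knockout IMQ and from 3.52 to 4.86 in knockout vehicle ears, and from 3.42 to 4.50 in wild-type IMQ and 2.93 to 3.66 in wild-type vehicle ears. Its changes were -0.25 ± 0.27 and 0.61 ± 0.27 (adjusted p = 0.649 and 0.284), at levels near the array background.

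The 3 lipid droplet genes received different calls. Plin1, whose protein coats the droplet and controls access of lipases, read 4.21, 4.30, 4.15 and 3.80 in knockout IMQ ears, against 4.52, 5.53, 4.52 and 5.24 in knockout vehicle ears. All 4 IMQ arrays lay below all 4 vehicle arrays, as for 7.43% of all genes, and Plin1 fell by 0.84 ± 0.25 (SE) on the log2 scale, to 0.560 of its vehicle level (adjusted p = 0.0301). In wild-type ears it read 4.03, 4.83, 3.90 and 4.39 with IMQ, against 4.36, 4.83, 3.73 and 4.42 with vehicle, a change of -0.05 with a 95% interval from -0.58 to 0.48. The knockout call was lost without knockout IMQ array 1 (adjusted p = 0.0517), 3 (0.0572) or 4 (0.0936), without knockout vehicle array 2 (0.111) or 4 (0.0973), and without knockout vehicle arrays 3 and 4 together (-0.91, adjusted p = 0.0747). With the skeletal muscle mean as a covariate the Plin1 estimate reversed to 0.23 (adjusted p = 0.849).

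Cidec, which fuses droplets into a single large one, was called in wild-type ears instead. It read 6.19, 7.39, 6.99 and 6.88 in wild-type IMQ ears, against 5.01, 6.14, 5.18 and 6.07 in wild-type vehicle ears. The groups did not overlap, as for 5.52% of all genes in that direction, although the lowest IMQ array, 6.19, stood close to the highest vehicle array, 6.14. Cidec rose 2.40-fold (1.26 ± 0.31 on the log2 scale, adjusted p = 0.0260). The call was lost without wild-type IMQ array 2 (1.09, adjusted p = 0.0954), 3 (1.22, adjusted p = 0.0692) or 4 (1.26, adjusted p = 0.0657) and without wild-type vehicle array 1 (1.07, adjusted p = 0.0957) or 3 (1.12, adjusted p = 0.0891). In knockout ears Cidec read 5.79, 6.43, 6.69 and 6.12 with IMQ, against 6.12, 7.18, 5.86 and 6.54 with vehicle, and its change of -0.17 ± 0.31 did not pass (adjusted p = 0.816).

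Plin4, which coats small droplets, lay just outside the threshold in wild-type ears. It read 6.75, 6.93, 6.55 and 7.30 with IMQ, against 6.03, 6.26, 5.92 and 6.09 with vehicle, groups that did not overlap. The change was 0.81 ± 0.22, or 1.75-fold, with an adjusted p of 0.0511. It passed under 9 of 27 alternatives, including median centring (adjusted p = 0.0408) and a fit of only the compared groups (adjusted p = 0.0125). In knockout ears Plin4 read 6.11, 6.24, 7.00 and 5.71 with IMQ and 6.41, 7.11, 6.44 and 6.62 with vehicle, with IMQ array 3 the highest of its group. That change was -0.38 ± 0.22 (adjusted p = 0.322), and without knockout IMQ array 3 it was -0.62 (adjusted p = 0.0385).

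**Figure D2:**
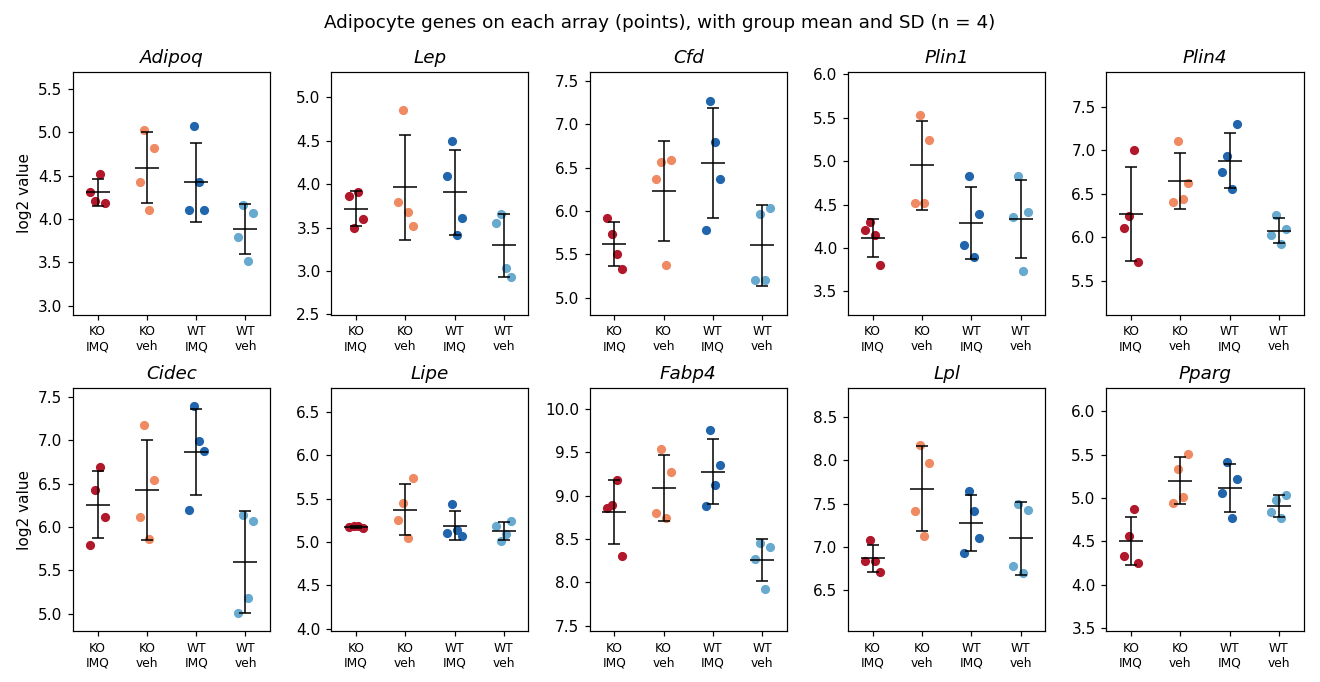
Log2 value (y axis, each panel spanning the same 2.8 units) of each adipocyte gene on every array (points), by group from left to right: knockout (KO) IMQ, KO vehicle (veh), wild-type (WT) IMQ and WT vehicle. Bars are group means with SD (n = 4); Fabp4 and Cidec in WT IMQ ears lie wholly above WT vehicle ears, and Plin1, Lpl and Pparg in KO IMQ ears lie wholly below KO vehicle ears.

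Of the genes that move and break down fatty acids, Fabp4 gave the firmest result. It was the most abundant member on the array scale and read 8.88, 9.76, 9.12 and 9.35 in wild-type IMQ ears, against 8.27, 8.45, 7.92 and 8.41 in wild-type vehicle ears. Every IMQ array exceeded every vehicle array, and Fabp4 rose 2.02-fold (1.01 ± 0.22 on the log2 scale, adjusted p = 0.00950), a call kept under all 27 alternatives (adjusted p 0.00426 to 0.0420). In knockout ears it read 8.86, 8.89, 9.18 and 8.30 with IMQ, against 8.80, 9.54, 8.74 and 9.27 with vehicle, and changed by -0.28 ± 0.22 (adjusted p = 0.486).

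Lpl, in contrast, was called in knockout ears. Knockout IMQ ears gave 6.84, 7.08, 6.84 and 6.71, against 7.41, 8.18, 7.13 and 7.97 in knockout vehicle ears, without overlap. Lpl fell by 0.81 ± 0.23 on the log2 scale, to 0.572 of its vehicle level (adjusted p = 0.0199). The call was lost without knockout IMQ array 4 (-0.75, adjusted p = 0.0554) and without knockout vehicle array 2 (-0.64, adjusted p = 0.0772) or 4 (-0.71, adjusted p = 0.0726), and held without knockout vehicle arrays 3 and 4 together. With the skeletal muscle mean as a covariate the Lpl estimate reversed to 0.32 (adjusted p = 0.671). Wild-type ears gave 6.93, 7.65, 7.42 and 7.10 with IMQ and 6.78, 7.49, 6.70 and 7.43 with vehicle, overlapping groups with a change of 0.18 and a 95% interval from -0.30 to 0.65. Lipe was the steadiest member, from 5.16 to 5.19 in knockout IMQ ears, 5.05 to 5.74 in knockout vehicle ears, 5.07 to 5.44 in wild-type IMQ ears and 5.01 to 5.24 in wild-type vehicle ears. Its residual SD of 0.18 lay at the 32.1th percentile of all genes, against the 91.8th to 99.1th percentile for the members other than Lipe and Pparg, and its changes with IMQ were -0.20 ± 0.13 and 0.06 ± 0.13 in knockout and wild-type ears (adjusted p = 0.400 and 0.910).

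Pparg, the transcription factor of the set, fell in knockout ears. It read 4.33, 4.56, 4.87 and 4.25 with IMQ, against 4.94, 5.34, 5.01 and 5.51 with vehicle, so that the highest IMQ array lay just below the lowest vehicle array. Pparg fell by 0.70 ± 0.16 on the log2 scale, to 0.617 of its vehicle level (adjusted p = 0.00577). The call held under 26 of 27 alternatives and was lost with the mean of the skeletal muscle genes as a covariate (-0.45, adjusted p = 0.549). In wild-type ears Pparg read 5.06, 5.42, 4.77 and 5.22 with IMQ and 4.84, 4.98, 4.77 and 5.04 with vehicle, a change of 0.21 ± 0.16 (adjusted p = 0.646).

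The difference between the IMQ effects, knockout minus wild type, was negative for all 10 members, from -0.25 for Lipe to -1.56 for Cfd, with a median of -0.94 where the median of all genes was 0.01. With the skeletal muscle mean as a covariate this pattern was lost: the median was -0.00, and 5 members turned positive, Plin1 (0.34), Lpl (0.21), Cfd (0.11), Lipe (0.06) and Adipoq (0.03). With that covariate 0 of all genes passed the test of this difference, against 387 in the main fit. The loss of calls was therefore not particular to the members. Only Fabp4 passed the test of this difference (-1.29 ± 0.30, adjusted p = 0.0441), as 1 of 10 members where 1.25% of all genes passed and 0.721% passed with a lower effect in the knockout. Pparg (-0.91 ± 0.23, adjusted p = 0.0619), Plin4 (-1.19 ± 0.31, adjusted p = 0.0728), Cfd (-1.56 ± 0.43, adjusted p = 0.0800) and Cidec (-1.43 ± 0.44, adjusted p = 0.123) did not pass. At an unadjusted p under 0.05 there were 9 members with a lower effect in the knockout, where 6.40% of all genes were that low. The members varied together between arrays of a group (median r 0.62 over 45 pairs, described below). These 9 are therefore not independent results. The Fabp4 call was kept without knockout IMQ array 3, knockout vehicle array 1 or 3, or wild-type IMQ array 1. It was lost without any 1 of the other 12 arrays (adjusted p 0.0524 to 0.103), and without knockout vehicle arrays 3 and 4 together (-1.38, adjusted p = 0.0677).

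Between genotypes the estimates lay in opposite directions under the 2 treatments, and no member passed the test. In vehicle ears all 10 estimates were higher in the knockout (median 0.62, all genes 0.01) and in IMQ ears all 10 were lower (median -0.44, all genes 0.01). By limma 0 of 10 members were called in vehicle ears, where 0.456% of all genes were called, and 0 of 10 in IMQ ears, where 0.120% were called. At an unadjusted p under 0.05 there were 7 members higher in knockout vehicle ears (5.62% of all genes) and 4 lower in knockout IMQ ears (4.59% of all genes). Fabp4 came closest in vehicle ears, with all 4 knockout values (8.74 to 9.54) above all 4 wild-type values (7.92 to 8.45), a difference of 0.82 ± 0.22 (adjusted p = 0.0945), which without knockout vehicle array 3 was 0.94 (adjusted p = 0.0462). Plin4 in vehicle ears was likewise separate, 6.41 to 7.11 in the knockout against 5.92 to 6.26 in wild type (0.57 ± 0.22, adjusted p = 0.292). These 2 were the members without overlap in that direction, as were 2.42% of all genes. In IMQ ears Pparg (-0.61 ± 0.16, adjusted p = 0.207) and Cfd (-0.93 ± 0.30, adjusted p = 0.357) had the smallest unadjusted p, and every member's groups overlapped, where 2.77% of all genes were separate and lower. Other tissue markers differed beside these values: in vehicle ears the stressed epidermis markers were called lower in the knockout in 9 of 15 cases (array means 5.34 to 7.53, against 7.81 to 8.56 in wild type) and the skeletal muscle markers called higher in 3 of 24 (median 0.86). Without knockout vehicle arrays 3 and 4 these counts were 13 of 15 and 4 of 24. With the muscle mean as a covariate the members' median was 0.10 in vehicle ears, where Plin1, Lpl and Cfd turned negative, and -0.04 in IMQ ears, where 4 members turned positive. The part of the epidermal markers in the genotype estimates was not tested. Each of the 4 groups enters 2 of these comparisons and the difference of effects, so the directions are not independent of each other. Nor are the members, which varied together between arrays.

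Within an array the members shifted against each other. Cidec minus Plin1, a difference of log2 values that carries no information on which gene is more abundant, was 1.58, 2.13, 2.54 and 2.32 in knockout IMQ ears and 1.60, 1.65, 1.34 and 1.30 in knockout vehicle ears. It was 2.16, 2.56, 3.09 and 2.49 in wild-type IMQ ears and 0.65, 1.31, 1.45 and 1.65 in wild-type vehicle ears. With IMQ the difference was thus wider in wild-type ears on all 4 arrays and in knockout ears on 3 of 4, the exception being knockout IMQ array 1. This pair was chosen after its values were seen and carries no test. Relative to the mean of the 10 members on the same array, Plin1 shifted by -0.39 in knockout and by -0.61 in wild-type ears, below every vehicle array in both, and Lpl by -0.35 and -0.38. Cidec shifted by 0.28 in knockout and 0.70 in wild-type ears, and Fabp4 by 0.17 and 0.46. Lipe and Cfd shifted in opposite directions in the 2 genotypes, Lipe by 0.25 in knockout and -0.50 in wild-type ears and Cfd by -0.16 and 0.39. Pparg shifted by -0.25 and -0.35, Plin4 by 0.07 and 0.25, Lep by 0.20 and 0.05, and Adipoq by 0.17 and -0.02. From Lipe to Adipoq, the IMQ and vehicle groups of these genes overlapped in both genotypes. Across the 10 members the IMQ effects in knockout and in wild-type ears, which share no arrays, correlated at r = 0.55 (Spearman's rho 0.52), a description over genes that are measured on the same arrays.

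**Figure D3:**
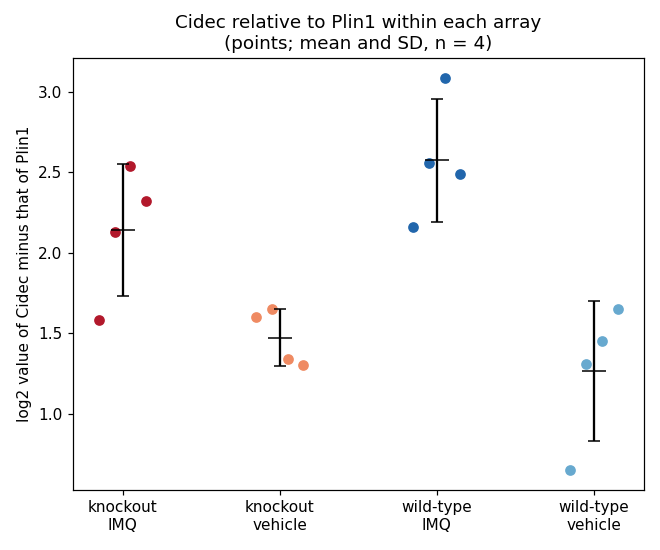
Log2 value of Cidec minus that of Plin1 on the same array (y axis), by group (x axis), with each array as a point and the group mean and SD as bars (n = 4). All 4 wild-type IMQ arrays (2.16 to 3.09) lie above the wild-type vehicle arrays (0.65 to 1.65), and 3 of 4 knockout IMQ arrays lie above the knockout vehicle arrays (1.30 to 1.65).

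The members also varied together between arrays of the same group. As deviations from the group mean over 16 arrays, all 45 pairs of members correlated above 0, with r from 0.14 (Plin4 and Lipe) to 0.89 (Cidec and Lpl) and a median of 0.62, and 33 pairs exceeded 0.5. Wild-type IMQ array 2 carried the highest value of its group for 9 of 10 members, and knockout vehicle array 2 and wild-type vehicle array 2 for 7 each. Knockout vehicle array 3 and wild-type vehicle array 3 carried the lowest for 7 members each, and knockout IMQ array 4 for 8. Adipoq and Fabp4 were closest to the rest (mean r with the other members 0.72 and 0.74), and Lep was farthest (0.40).

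**Figure D4:**
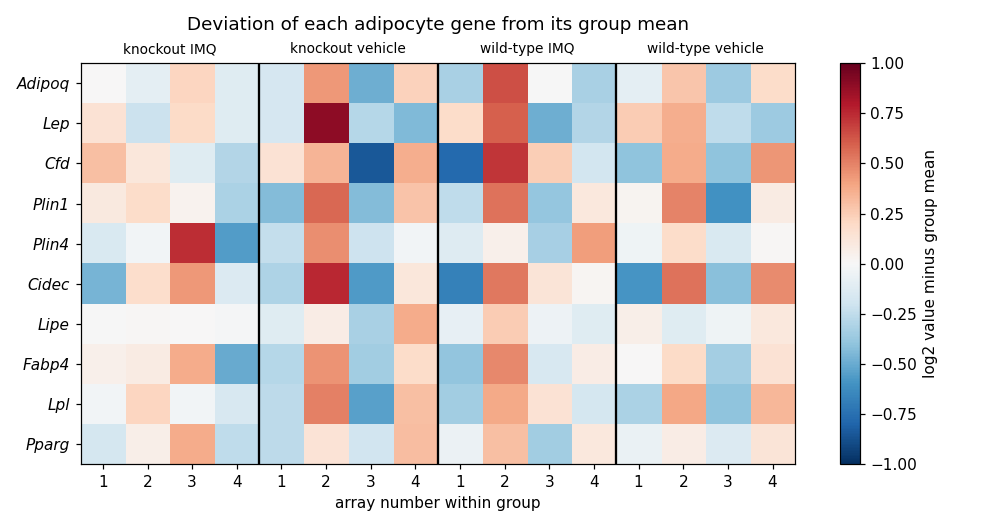
Deviation of each adipocyte gene (rows) from its group mean on each array (columns, 4 groups of 4 arrays in order of number), in log2 units, red above and blue below the group mean. Whole columns share a colour, such as wild-type IMQ array 2, where all 10 genes lie above their group mean, and knockout vehicle array 3, where all 10 lie below it.

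Genes outside the set shared this array-to-array pattern. By Pearson r with the mean deviation of the 10 members over 16 arrays, the 10 named genes most like them were Gaa, Retn and Hsd17b11 (0.94 each), Ifi27l2a and Ccm2l (0.92), Dlc1, Car3 and Gpd1 (0.91), and Cd36 and Cyp2f2 (0.90). Of these, Retn (the adipokine resistin), Car3 (a carbonic anhydrase abundant in fat and muscle), Gpd1 (glycerol phosphate for triglyceride) and Cd36 (a fatty acid transporter) were on the lists of other adipocyte genes. Hsd17b11, which encodes a lipid droplet enzyme, was the only 1 of the 10 called in the difference of IMQ effects (-1.06, adjusted p = 0.0111). It fell in knockout ears (4.10 with IMQ, 4.67 with vehicle, adjusted p = 0.00438) and rose in wild-type ears (4.66 with IMQ, 4.17 with vehicle, adjusted p = 0.0388). Ifi27l2a, an interferon-inducible gene, rose in wild-type ears (1.19, adjusted p = 0.0260, against -0.09, adjusted p = 0.911, in knockout ears), and its difference of effects did not pass (adjusted p = 0.147).

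Other genes of fat storage had calls in both directions in knockout ears, to be read against 8.07% of all genes called higher and 6.91% lower there, and 1.95% and 1.69% in wild-type ears. Counts without knockout vehicle arrays 3 and 4 follow where they differ. For triglyceride synthesis and droplets 3 of 19 rose and 4 fell in knockout ears (2 and 3 without those arrays, median -0.25 with all arrays), with Fitm1, a droplet budding factor, at -1.03 ± 0.28, the droplet coat Plin2 at 0.96 ± 0.15 and the triglyceride synthase Dgat1 at 0.89 ± 0.14. In wild-type ears 1 of 19 was called, Agpat2 at 0.66 ± 0.17, and the median was 0.01. For lipolysis and its control 2 of 16 rose and 5 fell in knockout ears (1 and 6 without those arrays, median -0.31 with all arrays), led by Irs1, an adaptor of the insulin receptor (-1.32 ± 0.13), the lipase-like Pnpla3 (-1.28 ± 0.15) and the natriuretic peptide clearance receptor Npr3 (-1.23 ± 0.22). In wild-type ears 1 rose, Irs2 (0.49 ± 0.12), and 2 fell, Pnpla3 (-0.76 ± 0.15) and Irs1 (-0.72 ± 0.13), with a median of 0.10. Pnpla2, the first lipase of fat breakdown, was among the genes of this list called in the difference of effects (-1.26 ± 0.29, adjusted p = 0.0368), with Npr3 (-1.34 ± 0.31, adjusted p = 0.0435) and the nicotinic acid receptor Hcar2 (1.25 ± 0.29, adjusted p = 0.0388). Without knockout vehicle arrays 3 and 4 the differences of Npr3 (adjusted p = 0.111) and Hcar2 (adjusted p = 0.0666) were no longer called.

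Of 11 uptake genes, 3 rose in knockout ears, namely Fabp5, the epidermal fatty acid carrier (1.98 ± 0.24), the lipoprotein lipase inhibitor Angptl4 (1.44 ± 0.24) and the glucose transporter Slc2a1 (1.40 ± 0.16), and 3 fell. Angptl4 (1.40 ± 0.24) and Slc2a1 (0.97 ± 0.16) rose in wild-type ears as well, the only 2 of 11 called there. Of 21 genes of adipogenic transcription, 6 rose and 3 fell in knockout ears (4 and 4 without knockout vehicle arrays 3 and 4), the largest being Ppard (1.28 ± 0.12), the early factor Cebpd (0.98 ± 0.23) and Klf15 (-0.82 ± 0.16). Cebpd (1.63 ± 0.23), Pdgfra, a receptor of fibroblasts and fat progenitors (1.10 ± 0.17), and Ppard (0.45 ± 0.12) were the 3 called in wild-type ears, all higher.

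Of 12 other adipokines and receptors, 2 fell in knockout ears, the adiponectin-binding cadherin Cdh13 (-0.85 ± 0.12) and the leptin receptor Lepr (-0.48 ± 0.16, not called without knockout vehicle arrays 3 and 4, adjusted p = 0.254), and 0 were called in wild-type ears. Among 17 other adipocyte-enriched genes haptoglobin (Hp) rose in knockout (1.49 ± 0.26) and wild-type ears (1.75 ± 0.26), while S100b (-1.29 ± 0.19) and Car3 (-1.20 ± 0.26) were the largest of 4 falls in knockout ears. Lipogenic enzymes had 2 of 11 higher and 4 lower in knockout ears (1 and 4 without knockout vehicle arrays 3 and 4), with Scd1 at -1.29 ± 0.14, Acacb at -1.21 ± 0.16 and Elovl6 at -1.07 ± 0.14, and 2 lower in wild-type ears, Elovl6 (-0.80 ± 0.14) and Scd1 (-0.52 ± 0.14). Of 7 brown adipocyte markers Cox7a1 (-1.14 ± 0.25) and Cox8b (-0.87 ± 0.25), which muscle also makes, fell in knockout ears (3 of 7 fell without knockout vehicle arrays 3 and 4), and Dio2 fell in wild-type ears (-0.99 ± 0.26). Ucp1, also on this list and named after its values were seen, had group means of 2.96 to 3.05. These lay below the array medians (3.21 to 3.28), and Ucp1 was not called.

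Markers of other tissues moved in the same comparisons. Of the skeletal muscle genes 23 of 24 fell with IMQ in knockout ears (median -1.36), with Tcap at -2.13 ± 0.29, Casq1 at -2.09 ± 0.25 and Pvalb at -2.01 ± 0.24, and 0 of 24 were called in wild-type ears (median 0.09), and 16 of 24 passed the difference of effects, all lower. Without knockout vehicle arrays 3 and 4 the counts were 23 and 19 of 24. Their array means were 6.57 to 7.35 in knockout IMQ and 7.70 to 8.72 in knockout vehicle ears, and 7.05 to 7.80 in wild-type IMQ and 7.04 to 7.90 in wild-type vehicle ears. Within groups their mean deviation correlated with that of the adipocyte genes at r = 0.68 over 16 arrays. With the muscle mean as a covariate, 0 of 10 members were called in knockout ears, where 554 genes were called in all. Plin1 and Lpl then changed sign (0.23, adjusted p = 0.849, and 0.32, adjusted p = 0.671), and the Fabp4 difference of effects was -0.52 (adjusted p = 0.832). Of all genes 0 passed the difference of effects with this covariate. In wild-type ears the same covariate left Fabp4 (0.97, adjusted p = 0.00539) and Cidec (1.19, adjusted p = 0.00783) called and added Cfd (0.86, adjusted p = 0.0113). Muscle markers and IMQ moved together in knockout ears, where the covariate and the treatment cannot be told apart.

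**Figure D5:**
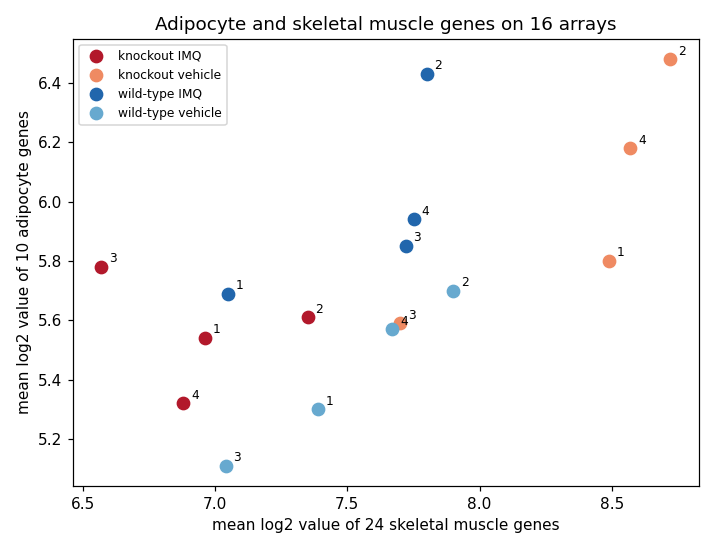
Mean log2 value of the 10 adipocyte genes (y axis) against that of 24 skeletal muscle genes (x axis) on each of the 16 arrays, coloured by group and numbered by array. Knockout IMQ arrays (muscle 6.57 to 7.35) lie left of the knockout vehicle arrays (7.70 to 8.72), while wild-type IMQ (7.05 to 7.80) and vehicle arrays (7.04 to 7.90) cover nearly one range, with adipocyte means of 5.69 to 6.43 and 5.11 to 5.70.

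Macrophage markers, relevant because macrophages also make Fabp4, Lpl and Pparg, rose in 5 of 14 cases in knockout ears, 4 without knockout vehicle arrays 3 and 4 (Cd14 2.73 ± 0.40, Itgam 2.33 ± 0.21, Fcgr1 1.24 ± 0.17) and in 7 of 14 in wild-type ears (Itgam 2.16 ± 0.21, Emr1 1.62 ± 0.28, Lyz2 1.29 ± 0.29). Their array means were 5.87 to 6.25 in knockout IMQ and 4.95 to 5.90 in knockout vehicle ears, and 5.94 to 6.40 in wild-type IMQ and 5.16 to 5.34 in wild-type vehicle ears. The estimates of Fabp4, Lpl and Pparg were -0.28, -0.81 and -0.70 in knockout ears. In wild-type ears they were 1.01, 0.18 and 0.21. Endothelial markers, which belong to a further source of Fabp4, rose in 2 of 12 cases in knockout ears (Cdh5 0.74 ± 0.16, Pecam1 0.39 ± 0.13). In wild-type ears 1 of 12 rose (Pecam1 0.77 ± 0.13). Of all genes 8.07% and 1.95% were called higher. The endothelial median was 0.16 in knockout and 0.40 in wild-type ears, against -0.02 for all genes in each. Array means were 4.41 to 4.63 in knockout IMQ and 4.12 to 4.69 in knockout vehicle ears. In wild-type ears they were 4.43 to 4.69 with IMQ and 4.16 to 4.28 with vehicle. Without knockout vehicle arrays 3 and 4 Pecam1 was not called in knockout ears (adjusted p = 0.398). Sebaceous markers, relevant to Pparg, had 3 of 11 higher and 2 lower in knockout ears (2 and 1 without those arrays) and 1 lower in wild-type ears, with array means of 5.25 to 5.92 in knockout IMQ and 5.29 to 5.37 in knockout vehicle ears. Cartilage markers were called lower with IMQ in 7 of 11 cases in knockout ears and 2 of 11 in wild-type ears. The shares of all genes called lower were 6.91% and 1.69%. In the difference of effects 2 of 11 were called, with a lower effect in the knockout. Cartilage array means were 4.17 to 4.49 in knockout IMQ and 5.08 to 5.21 in knockout vehicle ears. In wild-type ears they were 4.48 to 4.66 with IMQ and 4.85 to 4.95 with vehicle. Within groups the macrophage and endothelial mean deviations correlated with the adipocyte genes at r = 0.58 and 0.70. The sebaceous, cartilage and stressed epidermis ones correlated at 0.10, 0.26 and -0.39. The part of these other cell types in the results was not tested. For muscle, the covariate could not be told apart from the treatment in knockout ears.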

How the data were processed

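Gene expression in 16 mouse ear samples was measured on the Affymetrix Mouse Gene ST 2.1 array, 4 arrays in each of 4 groups taken from the sample titles. The authors deposited normalized log2 values for 41345 transcript clusters, and the submitters' processing notes name Affymetrix Expression Console as the tool. How probes were summarised, the tool's version and the build behind the annotation are unstated there. Deposited log2 values were used unchanged and run from 1.25 to 13.29. The deposited annotation sheet gives a symbol to 32471 clusters, and the cluster with the highest mean was kept for 909 genes with several, leaving 30943 genes.

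A linear model of 4 group means was fitted with limma 3.58.1 in R 4.3.3 (12 residual and 6.18 prior degrees of freedom), with 5 contrasts, Benjamini-Hochberg adjustment over all genes and a threshold of 0.05. An error after ± is a standard error. The fit was tested on simulated data. Precision is limited by the number of arrays. Array numbers were not used to pair the samples in the main fit. Over all genes, of 24 pairs of same-numbered arrays 1 had a correlation of deviations above 0.1 (-0.08 to 0.11). These correlations cannot exclude pairing. The members' mean deviations on arrays 1 to 4 were -0.21, 0.46, -0.42 and 0.17 in knockout vehicle ears. In wild-type vehicle ears they were -0.12, 0.28, -0.31 and 0.15, in the same order. The members, the 14 context lists (without the 10 members) and the alternatives were chosen with earlier results of these data known, so none is independent evidence. The text names all 10 members, up to 3 called genes of a list and comparison by size of change, and the 10 non-member genes most like the members. Ucp1 was named outside this rule. Lists were described by counts and medians with no set test. A result on one context gene is not reported here. Gene and promoter positions are those of RefSeq on GRCm38.p6.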

Additional observations from a re-analysis of the deposited data

Results flagged for a closer look

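Fabp4 was the only member whose IMQ effect differed between the genotypes by the test of the difference itself (-1.29 on the log2 scale, knockout minus wild type, limma adjusted p = 0.0441). With IMQ it was higher on all 4 wild-type arrays than on any wild-type vehicle array, and in knockout ears the groups overlapped. Its own effects were -0.28 ± 0.22 in knockout and 1.01 ± 0.22 in wild-type ears (SE). The call of the difference held under 12 of 26 alternatives. With the skeletal muscle mean as a covariate the difference was -0.52 (limma adjusted p = 0.832), in a fit where 0 of all genes passed. No array stood apart in any of the 40 sets of 4 values (10 members in 4 groups) by Dixon's test at its 95% critical value, which would mark about 1 set in 20 by chance.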

How the results depend on the processing

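Counts of called members were recomputed under 16 fits that left out 1 array each and 11 other settings. Leaving out 1 array gave 1 to 4 called members for IMQ in knockout ears (3 in the main analysis), 1 to 3 in wild-type ears (2), 0 to 1 between genotypes in vehicle ears (0), 0 throughout in IMQ ears and 0 to 4 for the difference of effects (1). Over all genes these fits called 3623 to 4567, 769 to 1210, 37 to 474, 7 to 80 and 149 to 824 genes, in the same order. For the difference of effects the main fit called 387 genes in all. The count of members was 3 with a filter on dim genes (723 genes in all), 2 with trend and robust options (652) and 2 with array weights (569). It was 0 with the muscle covariate (0 genes in all). It was also 0 without knockout vehicle arrays 3 and 4 (314 genes in all), an alternative chosen after seeing the data. With the array number as a replicate block it was 2, Cidec and Fabp4 (439 genes in all), and the block changed no other call of a member. The muscle covariate gave 0 calls of members for IMQ in knockout ears, where 554 genes were called in all against 4634 in the main fit. It turned Plin1 (0.23) and Lpl (0.32) positive, and the cause was not tested. Of 1340 single-gene recomputations 2 reversed, 29 lost a call and 28 gained one, and 29 uncalled values changed sign without passing. Quantile normalization kept the count in all 5 comparisons. Values near the array medians, as for Lep in wild-type vehicle ears, are limited by background.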
